A study of Mus musculus with 16 samples.

Results

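The 10 genes described here encode ligands, receptors and inhibitors of the interleukin-1 (IL-1) and tumor necrosis factor (TNF) pathways, namely Il1a, Il1b, Il1rn, Il1r1, Il18, Il18bp, Tnf, Tnfrsf1a, Tnfrsf1b and Tnfaip3. They were chosen by symbol, with earlier results of these data known, out of 20134 genes with a value on all arrays. Each gene was read from the probe with the highest mean signal among those whose RefSeq accession maps to its symbol, and all 10 had such a probe.

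The study compared the right neocortex of C57BL/6J mice after suction removal of the left cortex in newborns or in adults. NBH (neonatal brain hemisuction) animals were operated at postnatal day 7 (P7) and ABH (adult brain hemisuction) animals at 8 to 12 weeks of age. The tissue lay on the unoperated side, rostral of bregma, and by the methods the RNA of 4 male animals was pooled per group. The 8 pools were unoperated controls at P7, P14, P35 and 10 weeks, NBH 1 week after surgery (P14), NBH 4 weeks after surgery (P35), ABH 1 week after surgery (11 weeks of age) and ABH 4 weeks after surgery (15 weeks of age). The labels name no agent and no transgene. Every pool was hybridised to 2 Agilent mouse 8 x 60K arrays, once labelled with Cy3 and once with Cy5. There was thus 1 biological sample per group, so no difference below could be tested and no p-value is given. The spread between the 2 dyes is technical, and every value written with ± is the mean and SD of these 2 arrays (n = 2).

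IL-1α and IL-1β, encoded by Il1a and Il1b, and IL-18 are related cytokines. IL-1α and IL-1β signal through the receptor encoded by Il1r1, while the receptor antagonist (Il1rn) occupies that receptor without signalling and the IL-18 binding protein (Il18bp) traps free IL-18. TNF acts through the broadly expressed receptor TNFR1 (Tnfrsf1a) and through TNFR2 (Tnfrsf1b), which is found mainly on immune, glial and endothelial cells. These receptors feed into the transcription factor NF-kB, and A20 (Tnfaip3), itself an NF-kB target, is a brake on that signal. In the injured brain the cytokines are known as products of microglia and invading leukocytes, and astrocytes, endothelial cells and neurons respond to them.

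Promoters are shown for Tnfrsf1b, Il18bp and Il1r1, which were higher in the pool ABH 1 week, and for Tnfrsf1a, whose second probe passed the limit there. The sequences are those of RefSeq on the build GRCm38.p6, 250 bases before to 50 bases after a listed start, written 5′ to 3′ on the strand of the gene. All 10 genes had at least 1 window, and the table held 14 windows for them. Capitals mark matches to the NF-kB consensus, to the STAT motif GAS (TTCNNNGAA) or to the interferon response core (GAAANNGAA), each searched on both strands. Tnfaip3 is added as the known NF-kB target, and the second of its windows is left out because it held none of the motifs searched.
Tnfrsf1b, chr4:145246821-145247120, minus strand: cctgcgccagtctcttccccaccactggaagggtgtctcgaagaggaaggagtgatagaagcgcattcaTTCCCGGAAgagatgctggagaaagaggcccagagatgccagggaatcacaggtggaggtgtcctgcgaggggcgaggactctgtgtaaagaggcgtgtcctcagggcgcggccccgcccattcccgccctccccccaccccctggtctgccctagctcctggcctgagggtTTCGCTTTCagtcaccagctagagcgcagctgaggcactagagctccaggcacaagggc
Il18bp, chr7:102018183-102018482, minus strand: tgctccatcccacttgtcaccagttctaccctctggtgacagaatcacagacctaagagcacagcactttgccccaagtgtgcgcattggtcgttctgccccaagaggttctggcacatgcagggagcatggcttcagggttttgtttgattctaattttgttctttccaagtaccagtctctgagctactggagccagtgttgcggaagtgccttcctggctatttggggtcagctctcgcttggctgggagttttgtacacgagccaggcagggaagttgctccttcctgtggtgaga
Tnfrsf1a, chr6:125349473-125349772, plus strand: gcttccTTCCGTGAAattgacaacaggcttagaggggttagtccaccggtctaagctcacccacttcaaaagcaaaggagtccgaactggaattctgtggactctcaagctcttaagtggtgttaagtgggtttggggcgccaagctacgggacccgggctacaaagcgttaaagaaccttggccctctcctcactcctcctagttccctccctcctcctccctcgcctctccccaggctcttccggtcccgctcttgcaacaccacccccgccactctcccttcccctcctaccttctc
Il1r1, chr1:40266336-40266635, plus strand: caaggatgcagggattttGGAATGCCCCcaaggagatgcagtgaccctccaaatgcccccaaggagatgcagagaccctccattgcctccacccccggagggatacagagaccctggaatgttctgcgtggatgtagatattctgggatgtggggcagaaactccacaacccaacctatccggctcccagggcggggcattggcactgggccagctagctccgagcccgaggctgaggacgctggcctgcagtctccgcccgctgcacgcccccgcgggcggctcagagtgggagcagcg
Tnfaip3, chr10:19015361-19015660, minus strand: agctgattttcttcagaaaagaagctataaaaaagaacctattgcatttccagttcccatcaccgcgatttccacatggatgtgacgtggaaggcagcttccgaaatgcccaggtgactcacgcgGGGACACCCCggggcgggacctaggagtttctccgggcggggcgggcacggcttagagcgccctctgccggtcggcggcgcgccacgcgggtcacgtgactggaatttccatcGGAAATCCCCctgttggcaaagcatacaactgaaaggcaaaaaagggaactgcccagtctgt

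The NF-kB consensus was found in 1 of the 2 windows of Il1r1 and in 1 of the 2 windows of Tnfaip3, which held it at 2 places, and in no other window of the 10 genes. Over all 32851 promoters of this length, 8.46% held it. The GAS motif lay in the windows of Tnfrsf1b and Tnfrsf1a (8.3% of all promoters) and the interferon response core in that of Tnfrsf1b (8.56% of all promoters). The Il18bp window held none of the 7 motifs searched, which also included AP-1 (TGANTCA), the ETS core (GAGGAA), the GC box (GGGCGG) and TATAAA. AP-1 was matched in 1 window each of Il1a, Il1rn and Tnfaip3 against 7.81% of all promoters. TATAAA was matched in 6 of the 14 windows, each of another gene, against 13.6%. The ETS core was matched in 1 window each of Il1a, Tnf and Tnfrsf1b against 28.3% of all promoters. The GC box was matched in 1 window each of Il1r1, Tnf, Tnfaip3 and Tnfrsf1b against 35.7%. A match is a description of the letters only.

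Levels are log2 spot intensities after background correction, minus the 75th percentile of the array, so that 0 is the intensity that 75% of the gene spots of an array did not exceed. They compare 1 gene between pools and not 1 gene with another, and where a pool has a pair of levels, that of the Cy3 array comes first. Across the 16 arrays the median spot intensity was 192.5 to 253 and the median local background 59 to 72, and 60.2 to 72.2% of the spots were well above background by the scanner software. All 10 neocortical neuron markers listed were above background on every array. Control pools lay in the other row of each chip than surgery pools, so that position and surgery cannot be told apart. The P35 control stood apart in Xist, the transcript of the inactive X chromosome, which was above background there with both probes on both arrays. With 1 probe the level was -1.53 there against -4.52 to -4.04 in the other 7 pools. With the other probe it was -2.81 against -4.16 to -3.49. This other probe was also above background on 1 array each of the 10-week control and of ABH 4 weeks. Of the genes on the Y chromosome, named after their values were seen, Eif2s3y stood at 1.22 in the P35 control against 1.72 to 2.46 elsewhere. Uty with its brighter probe stood at -2.91 against -2.63 to -2.34. Ddx3y, Kdm5d and the dimmer Uty probe were not lowest there. The P35 control is the reference of NBH 4 weeks and enters the control age steps on either side of P35. The sex of its animals was not tested. The choroid plexus marker Ttr stood at 5.05 and 3.94 in the NBH pools at 1 and 4 weeks, at 4.65 in the ABH pool at 4 weeks and at -1.48 to 0.40 in the other 5 pools.

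A gene was compared where at least 1 of the 2 pools was above background on both arrays. It was counted as higher at 1.5-fold or more with both dyes and as lower at 0.75-fold or less with both dyes. The 10-week control was younger than both ABH pools, which were 11 and 15 weeks of age, so age and surgery cannot be told apart there. Of the 10 genes, 7 could be compared in ABH 1 week against the 10-week control. Tnfrsf1b, Il18bp and Il1r1 were higher, that is 3 of 7, where 4.44% of all 16320 genes compared were higher. None was lower, where 6.37% of all genes were lower. The median change of the 7 genes was 0.62 on the log2 scale beside -0.08 for all genes. The 3 other comparisons gave no call among these genes.

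**Figure D1:**
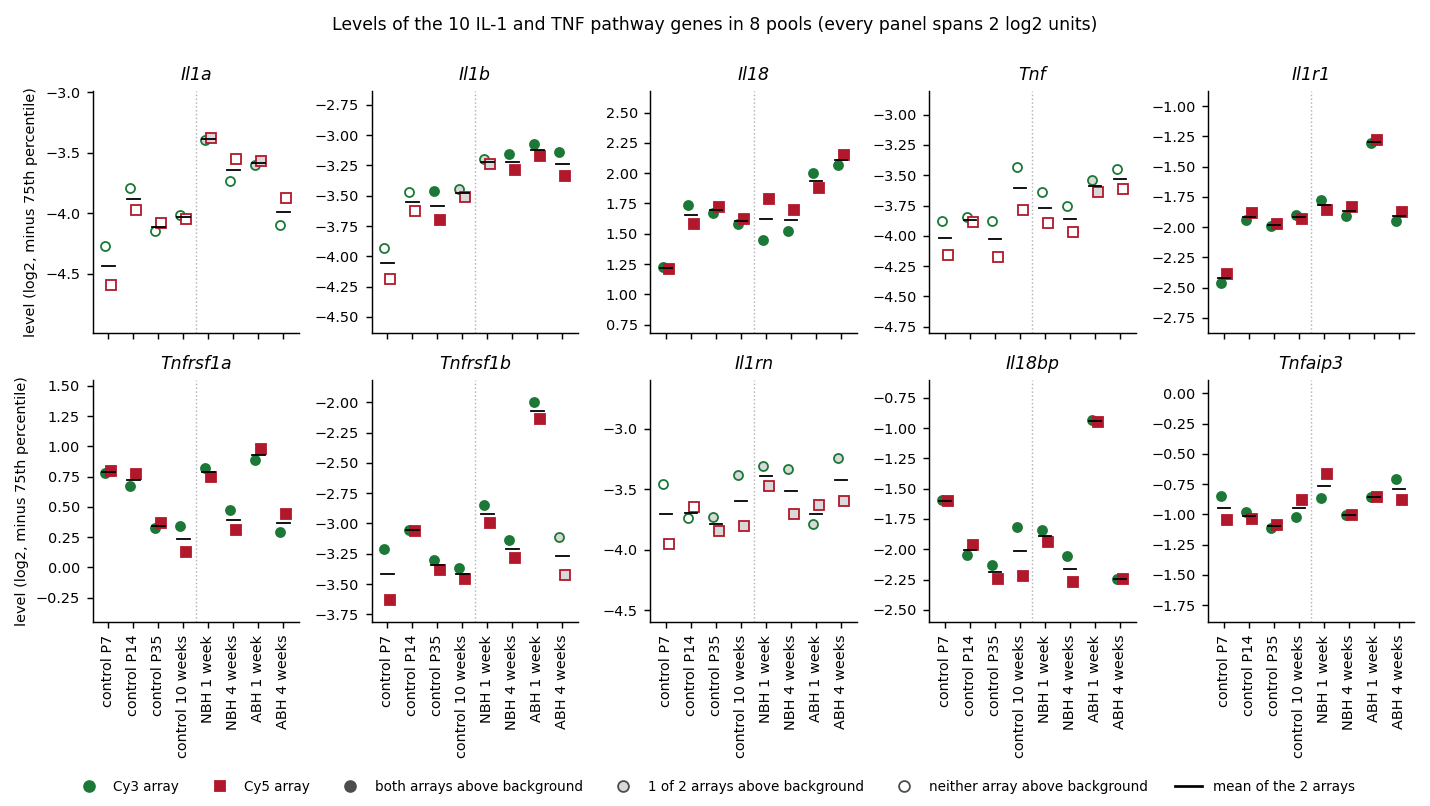
Level of each gene in the 8 pools (x axis) as log2 intensity minus the 75th percentile of the array (y axis, 2 log2 units in every panel), with circles for Cy3 arrays, squares for Cy5 arrays and a line for their mean. Filled points belong to pools above background on both arrays, grey points to pools above it on 1 and open points to pools above it on neither. Tnfrsf1b, Il18bp and Il1r1 stand clear of all other pools in ABH 1 week, while Il1a, Il1rn and Tnf have no filled point.

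The messages of the classical ligands lay at the edge of detection. Il1a was above background on 2 of 16 arrays, those with Cy5 of both pools taken 1 week after surgery, and in no pool on both. Its level ran from -4.27 and -4.59 (Cy3 and Cy5) in the P7 control to -3.39 and -3.38 in NBH 1 week, and no comparison was made.

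Tnf was read from 10 spots on each array. The spots above background were 13 of 20 in ABH 1 week over both arrays, 5 of 18 in the 10-week control and 2 of 16 in ABH 4 weeks, and none in the other 5 pools. The level was -3.54 and -3.64 in ABH 1 week and -3.43 and -3.79 in the 10-week control, so the dye ranges overlapped. The probe was above background on the Cy5 array of ABH 1 week alone, and Tnf too was not compared. On 1 of the 2 P14 control arrays at least 1 of its 10 spots was above background in the channel without labelled RNA.

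Il1b was also read from 10 spots per array and was the better seen of these ligands. Over both arrays, 20 of 20 spots were above background in ABH 1 week, 20 of 20 in NBH 4 weeks, 19 of 20 in ABH 4 weeks and 18 of 19 in the P35 control. The count was 13 of 19 in the 10-week control, 12 of 19 in NBH 1 week, 2 of 20 in the P14 control and 0 of 19 in the P7 control. The level was -3.08 and -3.17 in the ABH pool at 1 week, -3.14 and -3.33 in that at 4 weeks and -3.44 and -3.51 in the 10-week control. Both surgery pools were thus above the control with each dye. The change was 0.35 ± 0.02 (1.27-fold) after 1 week and 0.24 ± 0.09 after 4 weeks, neither past the limit. For NBH 4 weeks, at -3.16 and -3.29, against the P35 control, at -3.46 and -3.70, it was 0.36 ± 0.07. NBH 1 week and its P14 control were not compared, being above background on 1 array and on none. The constant of 50 added in the background correction reduces the changes of such dim probes. From the scanner's processed signals the change of Il1b in ABH 1 week was 0.79 and past 1.5-fold with both dyes. Without the constant the mean change was 0.60, but it was not past 1.5-fold with both dyes.

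Il18 was above background on all 16 arrays and bright, with a spot intensity 50.2 to 101 times the local background. It stood at 1.23 and 1.21 in the P7 control, 1.74 and 1.58 at P14, 1.67 and 1.72 at P35 and 1.58 and 1.62 at 10 weeks. The NBH pools lay at 1.45 and 1.79 after 1 week and 1.53 and 1.69 after 4 weeks. Each overlapped the control of its own age. The ABH pools were the 2 highest, at 2.00 and 1.88 after 1 week and 2.07 and 2.15 after 4 weeks. Against the 10-week control this was 0.34 ± 0.11 (1.26-fold) and 0.51 ± 0.03 (1.42-fold), each above 0 with both dyes and each short of 1.5-fold. The 2 comparisons share their control, which was younger than either ABH pool. The order of their values turned with the scaling, at 0.60 and 0.47 under median scaling. In ABH 4 weeks choroid plexus and striatal markers were also higher (8 of 10 and 6 of 10, beside 0.43% of all genes). Their part in the Il18 value was not tested.

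Tnfrsf1b, which encodes the receptor TNFR2, was dim outside ABH 1 week, at -3.21 and -3.63 in the P7 control, -3.05 and -3.06 at P14, -3.30 and -3.39 at P35 and -3.37 and -3.46 at 10 weeks. The NBH pools read -2.85 and -2.99 at 1 week and -3.14 and -3.29 at 4 weeks. ABH 4 weeks read -3.11 and -3.42, where the Cy5 array was not above background. In ABH 1 week it read -2.00 and -2.14, and no other pool overlapped this. Against the 10-week control the change was 1.35 ± 0.04, or 2.54-fold. For this dim probe the size depended on the background correction, with 1.86 without the offset, 2.09 from processed signals and 2.20 in the authors' value table without scaling. After 4 weeks it was 0.15 ± 0.16. The NBH changes were 0.14 ± 0.09 at 1 week and 0.13 ± 0.04 at 4 weeks. From processed signals the change was -0.24 in NBH 4 weeks and -0.10 in ABH 4 weeks.

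Il1r1, the signalling receptor of IL-1, was above background everywhere, with little spread between the dyes. It stood at -2.46 and -2.38 in the P7 control, -1.94 and -1.89 at P14, -1.99 and -1.97 at P35 and -1.90 and -1.94 at 10 weeks. The NBH pools read -1.78 and -1.86 at 1 week and -1.91 and -1.83 at 4 weeks, and ABH 4 weeks read -1.95 and -1.87. These 6 pools past P7 lay within 0.16 of each other on the mean of the dyes. ABH 1 week stood apart from them at -1.31 and -1.28. The change there was 0.62 ± 0.04 (1.54-fold), just past the limit with Cy3 and with Cy5, and after 4 weeks it was 0.01 ± 0.08.

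Tnfrsf1a, which encodes TNFR1, had 2 probes that disagreed in size. The brighter, which was used, read 0.34 and 0.12 in the 10-week control and 0.88 and 0.97 in ABH 1 week. Its change was 0.54 with Cy3 and 0.85 with Cy5, so that Cy3 fell short of 1.5-fold and the gene was not counted as higher. The other probe, the mean of 10 spots per array, read 0.00 and 0.17 in the control and 1.40 and 1.47 in ABH 1 week. Its change of 1.35 ± 0.07 (2.56-fold) was past the limit with both dyes. Both probes are assigned to the same transcript accession, and which of them follows the message more closely was not tested. They also differed over age. From P14 to P35 the first stood at 0.67 and 0.77 and then at 0.33 and 0.37, while the second stood at 0.22 and 0.26 and then at 0.14 and 0.22. In ABH 4 weeks the changes were 0.13 ± 0.26 with the first probe and 0.42 ± 0.18 with the second. In the NBH pools the mean change of either probe was at most 0.13.

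**Figure D2:**
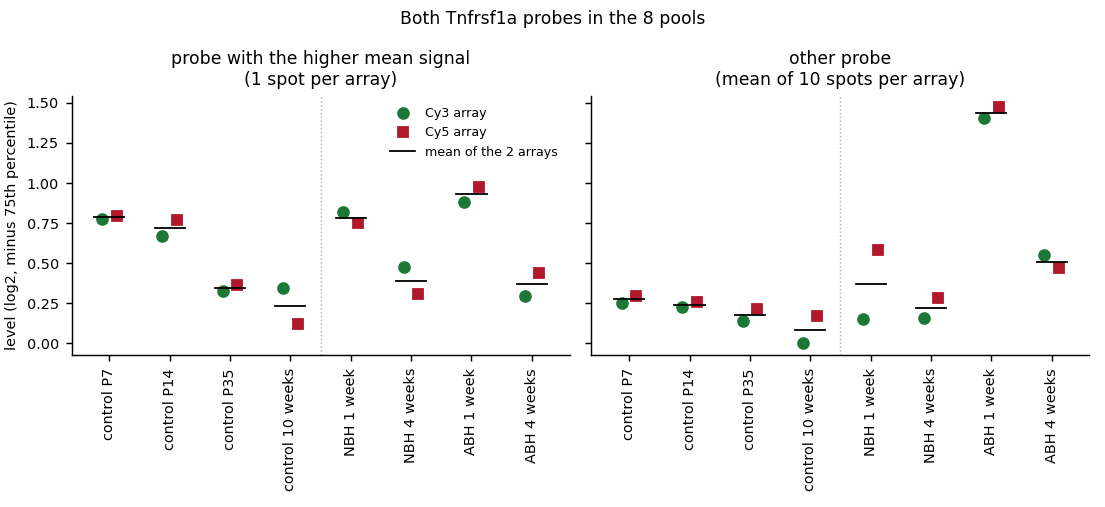
Level of Tnfrsf1a in the 8 pools (x axis) with its 2 probes (panels), as log2 intensity minus the 75th percentile of the array (y axis). Circles are Cy3 arrays, squares Cy5 arrays and lines their mean. ABH 1 week is the highest pool with both probes, but it exceeds the 10-week control by 0.70 with the first and by 1.35 with the second.

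Of the inhibitors, Il18bp was higher in ABH 1 week. It stood at -1.60 and -1.61 in the P7 control, -2.05 and -1.97 at P14, -2.13 and -2.25 at P35 and -1.81 and -2.22 at 10 weeks, where the dyes were farthest apart. NBH 1 week read -1.84 and -1.94, NBH 4 weeks -2.06 and -2.27 and ABH 4 weeks -2.24 and -2.25. In ABH 1 week it read -0.93 and -0.95, with no overlap with any other pool. The change was 1.08 ± 0.27 (2.11-fold), made of 0.88 with Cy3 and 1.27 with Cy5. After 4 weeks it was -0.23 ± 0.29, with Cy3 alone past the lower limit.

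Il1rn, the receptor antagonist, was above background on 6 of 16 arrays, never on both arrays of a pool. Its mean level lay between -3.79 and -3.39 in all pools and it was not compared. Tnfaip3 was above background on all 16 arrays and had the narrowest range of the members always above background, 0.33 between the lowest and the highest pool. It read -1.02 and -0.88 in the 10-week control, -0.85 and -0.86 in the ABH pool at 1 week and -0.71 and -0.88 in that at 4 weeks. Its changes were 0.09 ± 0.11 and 0.16 ± 0.22, and none passed a limit. In NBH 1 week it stood at its highest, -0.86 and -0.67, with a change of 0.24 ± 0.18 against the P14 control.

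After neonatal surgery no member was higher or lower. In NBH 1 week against the P14 control 6 members were compared, and 0.472% of all 15469 genes were higher and 0.427% lower. In NBH 4 weeks against the P35 control 7 were compared, and 0.214% of 15873 genes were higher and 0.75% lower. The members' changes spanned -0.04 to 0.24 at 1 week, with a median of 0.11 beside 0.06 for all genes, and -0.09 to 0.36 at 4 weeks, with a median of 0.09 beside 0.04. In ABH 4 weeks 7 were compared, and 0.43% of 16294 genes were higher and 0.209% lower. The range was -0.23 to 0.51 and the median 0.15 beside 0.07. With so few calls over all genes, an absence of calls among 6 or 7 members says little about them.

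Side by side, Tnfrsf1b changed by 0.14 ± 0.09 in NBH and 1.35 ± 0.04 in ABH at 1 week, Il18bp by 0.12 ± 0.13 and 1.08 ± 0.27, and Il1r1 by 0.10 ± 0.10 and 0.62 ± 0.04. With 1 pool per group the difference between neonatal and adult surgery was not tested.

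**Figure D3:**
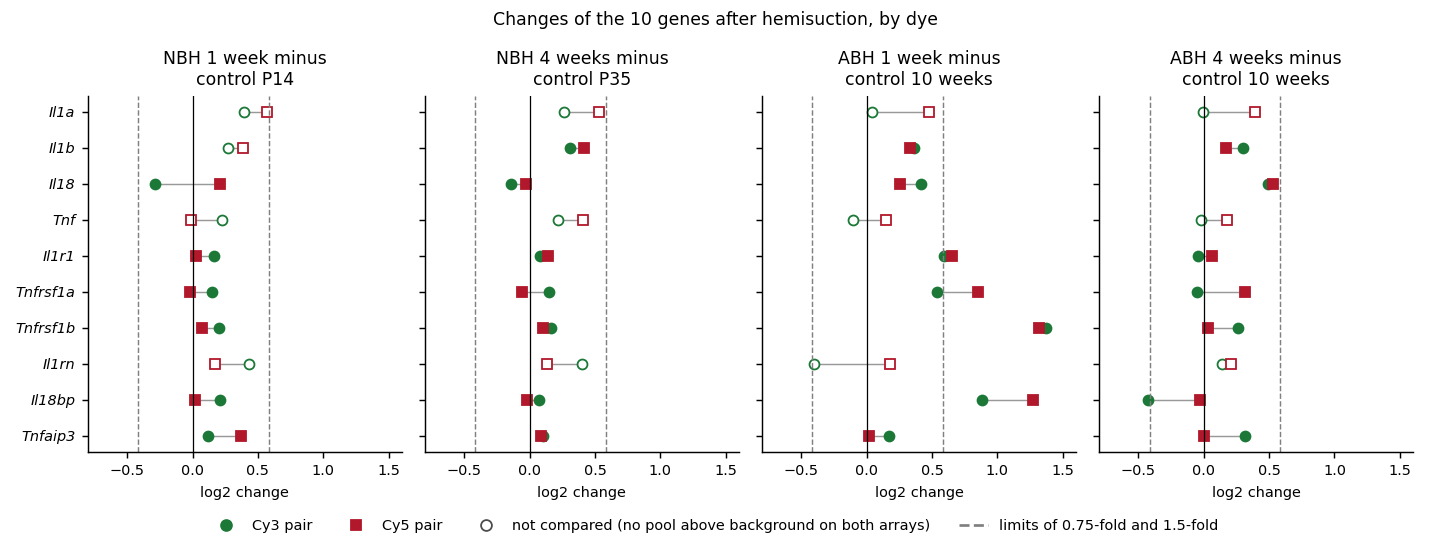
Log2 change of each gene (x axis) in the 4 surgery comparisons (panels), with a circle for the Cy3 pair and a square for the Cy5 pair of arrays. Dashed lines mark 0.75-fold and 1.5-fold, and open points are genes that were not compared. For open points, a pool above background on neither array was held at no less than the lowest level above background. Such points can thus differ from the measured difference. Only in ABH 1 week do both points of a gene lie past a line, for Il1r1, Tnfrsf1b and Il18bp.

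The unoperated controls give the scale of change with age. No member passed a limit from P7 to P14 (6 compared), from P14 to P35 (7 compared) or from P35 to 10 weeks (7 compared). Among all genes 8.58% were higher and 14.6% lower in the first step, 2.28% and 6.37% in the second and 1.83% and 0.806% in the third. Il1r1 changed by 0.51 ± 0.02 from P7 to P14 and Il18 by 0.44 ± 0.10. Il18bp changed by -0.41 ± 0.07 in that step, past the lower limit with Cy3 and short of it with Cy5. The largest change of a compared member in a later step was that of Tnfrsf1a from P14 to P35, -0.37 ± 0.04. This holds for the probe used, and the other Tnfrsf1a probe changed by -0.06 ± 0.03.

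The rest of the pathway was followed in 91 further genes, all with a probe, in 6 lists by role. In ABH 1 week 74 were compared, of which 14 were higher and 2 lower, with a median of 0.16 beside -0.08 for all genes. Of all genes compared there, 4.44% were higher and 6.37% lower. The induced targets moved most, 7 of 14 compared being higher, with a median of 0.56. Cxcl10, a chemokine for T cells, read 0.57 on the mean of the dyes against -3.36 in the control, a change of 3.93 ± 0.12 (15.2-fold). Ccl2, which attracts monocytes, changed by 3.11 ± 0.16 (8.6-fold) and Tnfaip2, a TNF-induced gene, by 1.48 ± 0.19. Saa3, an acute phase protein, was not above background in the control and was at least 2.03-fold higher. Csf1, the growth factor of microglia and macrophages, changed by 0.87 ± 0.01. In the same list Il6, Cxcl1, Cxcl2, Sele, Csf2 and Csf3 were above background on both arrays of no pool.

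Among the inflammasome and processing genes 4 of 9 compared were higher and none lower, with a median of 0.45. Casp1, the protease that matures IL-1β and IL-18, changed by 0.88 ± 0.13 and Casp4, the mouse caspase-11, by 1.09 ± 0.12. Gsdmd, the pore protein through which IL-1β leaves the cell, changed by 0.94 ± 0.13. Nlrp3, a sensor of the inflammasome that was named after its value was seen, went the other way, by -0.75 with Cy3 and -0.39 with Cy5, and did not pass.

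Of the NF-kB subunits and inhibitors 1 of 13 compared was higher, Bcl3, a nuclear IkB family protein, by 1.65 ± 0.05 (3.13-fold), and the median of the list was 0.06. Of the adaptors and kinases 1 of 25 was higher, Casp8, the apical caspase of death receptors, by 0.90 ± 0.16, with a median of 0.10. The share of higher genes over all genes was 4.44% in this comparison. Among other receptors Ltbr, the lymphotoxin beta receptor, was higher by 0.84 ± 0.12 and Tnfrsf14 lower, with a change of -1.11 ± 0.60, out of 7 compared with a median of -0.19. The change of Tnfrsf14 was -1.54 with Cy3 and -0.69 with Cy5, and with the mean over its probes or against the P35 control it no longer passed. The remaining calls were Lcn2, P2rx7 and Tnfaip8, higher, and Il1f10, an IL-1 family ligand, at least 1.34-fold lower. These 4 lay outside the 12 largest and are named to complete the count. Il1f10 lost its call under median scaling, under quantile normalization and with symmetric limits, and P2rx7 against the P35 control, with the mean over its probes and with 2-fold limits.

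In NBH 1 week 3 of 67 pathway genes compared were higher and none lower, all 3 in the list of induced targets, where 12 were compared. Of all genes compared there, 0.472% were higher and 0.427% lower. Cxcl10 changed by 1.45 ± 0.30 (2.73-fold), Lcn2, an iron-binding acute phase protein, by 0.96 ± 0.34 and Ccl2 by 0.84 ± 0.18. In the P14 control Cxcl10 and Ccl2 were above background on 1 array each. Cxcl10 kept its call in all 11 alternatives that gave it a value, Lcn2 in 10 of 12 and Ccl2 in 8 of 11. In this pool 8 of 10 choroid plexus markers were higher, Ttr by 6.53 ± 0.03. Of 4 neutrophil markers compared 1 was higher, S100a9 by 1.02 ± 0.21, and of 4 T cell markers 1 was lower, Cd3e, with a change of -0.43 ± 0.02. The part of these cell types in the values of Cxcl10, Lcn2 and Ccl2 was not tested. No pathway gene was higher or lower in NBH 4 weeks (68 compared) or in ABH 4 weeks (69 compared).

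**Figure D4:**
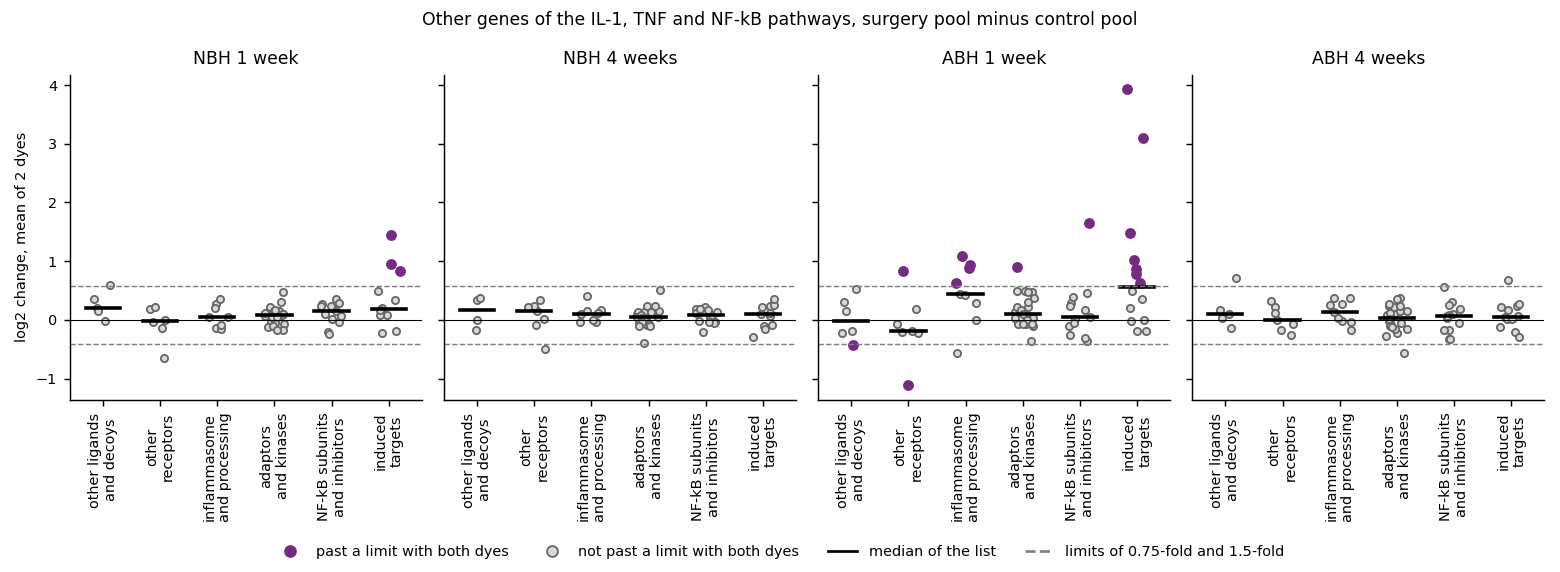
Log2 change, mean of both dyes (y axis), of the pathway genes compared, by list (x axis) and surgery comparison (panels). Filled points passed a limit with both dyes, short lines are list medians and dashed lines mark 0.75-fold and 1.5-fold. The 14 higher genes of ABH 1 week lie mostly among the induced targets and the inflammasome and processing genes.

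Markers of several cell types moved in the same pool as the receptors. In bulk tissue, more cells of a type and more RNA per cell cannot be told apart. Over all genes 4.44% were higher and 6.37% lower in ABH 1 week. In that pool 5 of 9 microglia markers compared were higher and none lower, with a median of 0.84, led by Trem2 (2.04 ± 0.13) and Aif1 (1.40 ± 0.05). The mean level of the microglia list over the 2 arrays was 3.71 and 3.75 in ABH 1 week against 2.95 and 2.96 in the 10-week control. Of the markers of monocytes and border macrophages 3 of 7 were higher, Ms4a7 by 3.52 ± 0.14, F13a1 by 2.45 ± 0.05 and Pf4 by 2.12 ± 0.00. Cd163 and Clec12a of that list were above background on both arrays of no pool. The list stood at -1.69 and -1.71 against -2.46 and -2.79.

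Of the neutrophil markers 2 of 7 were higher, S100a8 by 2.23 ± 0.09 and S100a9 by 2.10 ± 0.04, while Ngp and Cxcr2 were above background on both arrays of no pool. The neutrophil list stood at -1.99 and -2.00 against -2.57 and -2.81. Of the astrocyte markers 2 of 10 were higher, Gfap by 2.92 ± 0.09 and Vim by 2.41 ± 0.29. Meningeal fibroblast genes were higher in 5 of 10, led by Col1a1 (4.59 ± 0.24), Col1a2 (3.45 ± 0.07) and Lum (2.43 ± 0.13), and that list stood at 1.31 and 1.26 against -0.07 and -0.05. Blood markers were higher in 2 of 7, Alas2 by 2.09 ± 0.04 and Hbb-b2 by 1.94 ± 0.08, and endothelial markers in 1 of 10, Vwf by 0.79 ± 0.03. T cell markers were higher in none of 7 and lower in 2, Cd8a at least 2.47-fold and Cd2 at least 1.61-fold. No neuron marker was higher or lower, and the median of that list was -0.17. The part of these cell types in the values of Tnfrsf1b, Il18bp and Il1r1 was not tested.

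In ABH 4 weeks, where no member passed a limit, the microglia list stood at 3.17 and 3.13 with no marker higher, and Gfap was the only astrocyte marker higher, by 0.94 ± 0.19. The share of all genes that were higher in ABH 4 weeks was 0.43%. In NBH 4 weeks 4 of 10 choroid plexus markers were higher and 7 of 10 striatal markers lower, beside no call among the members. Of all genes compared there, 0.214% were higher and 0.75% lower. Of the 10 oligodendrocyte markers 1 was lower, Ermn in ABH 1 week, with a change of -0.77 ± 0.10.

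**Figure D5:**
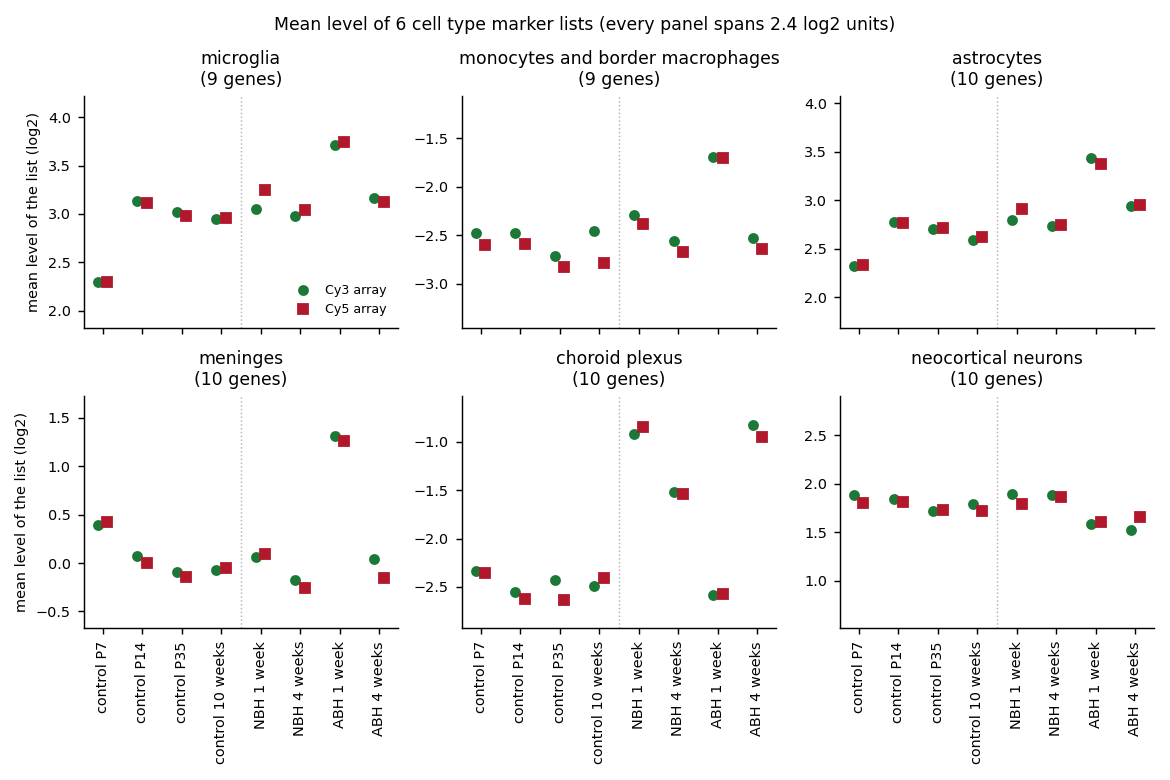
Mean log2 level of 6 marker lists (panels) in the 8 pools (x axis), with circles for Cy3 arrays and squares for Cy5 arrays, and 2.4 log2 units in every panel (y axis). The lists of microglia, of monocytes and border macrophages, of astrocytes and of meninges are highest in ABH 1 week, and the choroid plexus list is higher in both NBH pools and in ABH 4 weeks than in the other 5 pools.

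Of the members above background on all arrays, Il18bp had the widest range of pool means, 1.3 log2 units. The genes whose 8 pool means followed it most closely, among 14467 genes above background on all arrays, were Hacd4 (Pearson r = 0.989), Cyp1b1 (0.983), Ctsc (0.978), Ch25h (0.974) and Loxl1 (0.973). Hacd4 belongs to a family of fatty acid elongation enzymes, Cyp1b1 is a cytochrome P450, Ctsc is the lysosomal protease cathepsin C, Ch25h makes an oxysterol from cholesterol and Loxl1 crosslinks elastin. All 5 shared with Il18bp a high point in ABH 1 week, with changes of 1.47 to 1.73 against the 10-week control and -0.37 to 0.03 after 4 weeks. The 8 points come from the same pools and arrays, so the values of r are a description.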

How the data were processed

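Right neocortex RNA of 8 pools was measured on 16 arrays. The authors scanned them with Agilent Feature Extraction 11.0.1.1 (named in the submitters' processing notes), and the deposited values are spot intensities, of which the median signal and local background of the labelled channel were used. The headers report no dye normalization. The authors' value table holds the processed intensity, unscaled.

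Background was corrected with normexp (limma 3.58.1, R 4.3.3) with an offset of 50 over all spots, followed by log2 and subtraction of the 75th percentile of each array. Outlier spots were left out and spots of a probe averaged. Of 55681 probes, 26582 were named through their RefSeq accession, giving 20145 genes. A probe counted as well above background where at least as many of its spots were as were not, and a pool below it on both arrays was held at the lowest level above background, which gives a bound. No test was possible with 1 pool per group. A call needed 1.5-fold or 0.75-fold with both dyes, the limits that the study's methods name for up- and down-regulated genes in RT-PCR. The rule was tested on simulated data with known changes. Such data check the working of the rule only, since 1 pool per group holds no measure of the variation between animals.

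The members, gene lists, limits and alternatives were chosen with earlier results of these data known. Named were all 10 members, the 12 largest pathway calls per comparison, up to 3 calls per marker list and the 5 genes most like the member with the widest range, except 1 marker that is not reported here. The listed markers without a named probe were Cd68, Ly6c2, Ly6g, Trbc1 and Hbb-b1.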

Additional observations from a re-analysis of the deposited data

Results flagged for a closer look

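The values of Il18bp lay above 0 with both dyes in ABH 1 week, where it was higher (1.08 ± 0.27), and below 0 with both dyes in ABH 4 weeks, against the same control. In ABH 4 weeks they were -0.43 with Cy3 and -0.03 with Cy5, with a mean of -0.23, and did not pass the limit with both dyes. With 1 pool per time point the difference was not tested.

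A few probes read from 10 spots had at least 1 spot above background in the channel for which no RNA was labelled. For Il1b this was so on 1 of the 2 arrays of the P14 control and on 1 of the 2 arrays of NBH 1 week. For Tnf it was so on 1 array of the P14 control, and for the second Tnfrsf1a probe on 1 array of NBH 4 weeks. A single spot was enough here, unlike in the rule for a probe above background. Over all gene spots 0.755 to 1.43% were above background in the unlabelled channel.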

How the results depend on the processing

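Of 14 alternatives planned, 13 were run, and the use of mean spot signals was not. Tnfrsf1b was higher in ABH 1 week in all 13, with changes of 1.28 to 2.20, and Il1r1 (0.59 to 0.89) and Il18bp (0.88 to 1.34) in 12, all but the 2-fold limits. The count of members higher in ABH 1 week was 3 and became 5 in the authors' value table without scaling, where Il1b (0.88) and Tnfrsf1a (0.85) passed, and 1 with 2-fold limits. Tnfrsf1a also passed under median scaling (0.95), with Cy5 alone (0.85) and as the mean over its probes (1.02), and Il1b from processed signals (0.79). With Cy3 alone 1 member was lower in ABH 4 weeks, Il18bp (-0.43), where the count was 0. The other 99 of 102 counts of members under an alternative stayed within 1.5 times the reported count. Scaling moved the median change of all genes in ABH 1 week from -0.08 to 0.18 under median scaling. Relative to that median Il1r1 lay at 0.67 to 0.87, Il18bp at 0.96 to 1.34 and Tnfrsf1b at 1.32 to 2.18 over the alternatives. The 14 pathway genes higher in ABH 1 week became 5 with 2-fold limits and 21 under median scaling, and the 2 lower became 0 to 7. The 3 higher in NBH 1 week became 1 to 6 and the 0 lower 0 to 2. The counts of 0 became 0 to 2 higher and 0 to 3 lower in NBH 4 weeks, and 0 to 3 higher and 0 to 3 lower in ABH 4 weeks. Some uncalled changes of members in the NBH pools and in ABH 4 weeks lay on the other side of 0 in the unscaled value table, among them those of Il1r1, Tnfrsf1b and Tnfaip3 in ABH 4 weeks. Some also did so from processed signals, among them those of Tnfrsf1b in NBH 4 weeks (-0.24) and ABH 4 weeks (-0.10). No paired analysis was possible because each group held 1 pool. The number of arrays and the signal over background limit the precision for Il1a, Il1rn, Tnf and Il1b.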
